A study of Arabidopsis thaliana with 8 samples.

Results

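Whole-root RNA of the pye-1 mutant was compared with that of wild type on medium that contained iron, using 4 of the 8 Affymetrix Arabidopsis arrays in the study, chosen by their titles. Both genotypes are of the Columbia ecotype and differ, as labelled, only in pye-1, and the labels do not describe the lesion. Seedlings were 7 days old, counted from germination, when their roots were harvested. They had been raised on standard medium, in which Fe(III)-EDTA supplies the iron, and the groups described here were moved for 24 h to medium with iron. The other 4 arrays hold the same genotypes after 24 h without iron, on medium with 0.3 mM ferrozine, an iron chelator, and they serve below as a second measurement of the genotype difference. Each group has 2 arrays, each a biological replicate of about 320 pooled roots that were cut 0.5 mm below the hypocotyl, so every cell type of the root contributes to a signal. In such bulk RNA, fewer cells of a type and less RNA per cell cannot be told apart. The question was which transcripts differ when POPEYE is lost in roots with sufficient iron, and it was asked of all 15922 probe sets that were bright enough to test out of 22746.

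Roots of Arabidopsis take up iron by acidifying the soil, reducing ferric iron at the surface and importing ferrous iron through the transporter IRT1. This uptake is switched on under iron shortage by a cascade of basic helix-loop-helix (bHLH) transcription factors, in which the proteins bHLH34, bHLH104, ILR3 (bHLH105), bHLH115 and bHLH121 act upstream of the subgroup Ib factors such as BHLH101, and these pair with FIT to activate uptake genes. POPEYE (PYE) is a bHLH protein of this network, made mainly in the pericycle, that represses genes of iron distribution and homeostasis, while the hemerythrin E3 ligases of the BRUTUS family target some of the upstream factors for degradation.

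The 4 arrays with iron were alike in brightness, with median signals of 93.0 to 97.6 in arbitrary MAS5 units. The brightest of 27 bacterial control probe sets, taken here as not spiked, read 12.8 to 23.7 on these arrays, and that reading is used as the control level of an array. A signal at or below it is not told apart from background. Correlations across all tested probe sets were 0.975 to 0.977 between arrays of the same group and 0.971 to 0.979 between arrays of different groups, so genotype was not the main source of spread. The replicate 2 arrays were far brighter for 25S ribosomal RNA (1691 to 4047) than the replicate 1 arrays (242 to 565), and the replicate number entered the model as a block. The ratio of the 3' to the 5' GAPDH probe sets was 1.28 to 1.58. The summed signal of 5 green-tissue markers was 1079 and 980 on the wild-type arrays and 879 and 924 on the pye-1 arrays. The root-hair expansins EXPA7 and EXPA18 summed to 1413 and 1056 in wild type and to 1089 and 922 in pye-1, and the part of either marker set in the results was not tested.

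PYE itself (AT3G47640) read 56.7 and 65.1 on the wild-type arrays and 19.1 and 15.0 on the pye-1 arrays (replicates 1 and 2). The groups did not overlap, and both pye-1 signals lay just above the control levels of their arrays, 18.7 and 12.8. The change was -1.84 ± 0.29 (log2 of pye-1 over wild type ± SE, n = 2 per group), a 3.59-fold lower signal, with an adjusted p of 0.0171 in limma. That call was lost when any 1 of the 4 arrays with iron was left out (adjusted p up to 0.211) and without the replicate block (0.0630), and on the scale of log2(signal + 16) the change was -1.22. On the arrays without iron, PYE read 138 and 149 in wild type and 25 and 28.2 in pye-1, a change of -2.44 ± 0.29 (adjusted p 0.000656, limma). The low reading thus held in both media, and it matches the genotype labels.

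The gene next to PYE on the chromosome, AT3G47650, which is annotated as a protein with a DnaJ-type cysteine-rich domain, fell as well. Its signal was 223 and 201 in wild type and 77.3 and 63.6 in pye-1 with iron, so the groups lay far apart. The change was -1.59 ± 0.20 (n = 2 per group, adjusted p 0.00463 in limma), and without iron it was -1.72 (adjusted p 0.000539). Of the other genes within 6 places of PYE on either side, 5 were tested and none passed, with changes from -0.23 for AT3G47670 to 0.21 for AT3G47630 and adjusted p from 0.496 to 0.945. The fall was therefore seen in PYE and 1 adjacent gene among the 7 tested in that stretch, and its cause was not tested. Leaving out either pye-1 array with iron ended the call for AT3G47650 (adjusted p up to 0.125).

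Across the array, 55 of the 15922 probe sets passed an adjusted p of 0.05 (0.345%), 27 of them higher in pye-1 (0.17%) and 28 lower (0.176%). An unadjusted p under 0.05 was reached by 1648 probe sets, 835 higher and 813 lower. The median change over all tested probe sets was 0.02 and the median absolute change 0.13 on the log2 scale, while the calls ran from 0.63 upward and from -0.54 downward. Among the 55, 23 changed by more than 1 on the log2 scale, 16 higher and 7 lower. With the arrays centred on their medians, 71 passed, 25 higher and 46 lower. The names available here cover part of the array: 22 called probe sets name 1 gene, 12 higher and 10 lower, and 33 do not. The number of calls leaned on single arrays. It was 17 without pye-1 replicate 1, 7 without pye-1 replicate 2, and 32 without wild-type replicate 1. It was 79 without wild-type replicate 2, of which 29 were among the 55, and 10 without the replicate block, all 10 of them among the 55.

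**Figure D1:**
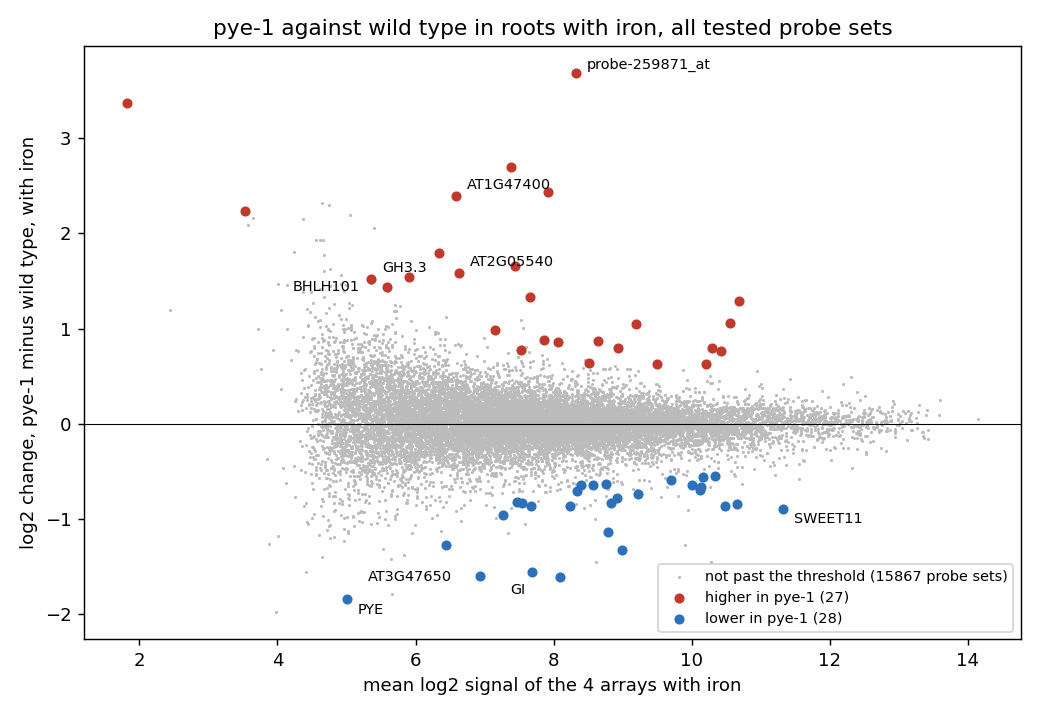
Change in pye-1 against wild type with iron (log2, vertical) against the mean log2 signal (horizontal) for the tested probe sets, with calls at an adjusted p of 0.05 coloured by direction. Most probe sets lie close to 0, while 27 calls lie above it and 28 below, with probe-259871_at the highest at 3.68 and PYE the lowest at -1.84.

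Among the iron regulators, 11 probe sets of 10 genes were tested, and 3 passed, against 0.345% of all tested probe sets. AT1G47400 and BHLH101 rose, and PYE, the mutated gene itself, fell. The list was chosen with earlier results of these data known, so the count of 3 is a description. The median of the list was -0.02, against 0.02 for all tested probe sets. AT1G47400 encodes a small iron-responsive peptide of the IRON MAN (FEP) family, which promotes the iron deficiency response. It read 45.3 and 39.1 in wild type and 226 and 216 in pye-1. The groups were far apart and the replicates close, and the change was 2.39 ± 0.14 (n = 2 per group, 5.25-fold, adjusted p 6.48e-06 in limma). It passed in all 8 fits that left out 1 array and without the block. The related gene AT1G47395 has no probe set named here, and no source used here says how far the probes tell such relatives apart.

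BHLH101, the subgroup Ib factor, read 42.1 and 20.2 in wild type and 74.5 and 83.3 in pye-1. The pye-1 signals were both higher, but the second wild-type signal lay below the control level of its array, 23.7. The change was 1.43 ± 0.24 (n = 2 per group, adjusted p 0.0262 in limma), 0.82 in replicate 1 and 2.05 in replicate 2, and it was 1.32 with dim signals raised to the control level. The call was lost without wild-type replicate 2, without either pye-1 array (values 0.88 to 1.99 over the fits that left out 1 array, adjusted p up to 0.368) and without the block (0.229).

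Both genes were brighter on the arrays without iron. AT1G47400 read 570 and 561 there in wild type and 1783 and 1186 in pye-1, and BHLH101 read 343 and 380 in wild type and 959 and 849 in pye-1. For both, the pye-1 signals with iron lay between those of wild type with iron and of wild type without it. The genotype change without iron was 1.36 (adjusted p 0.000314, limma) for AT1G47400 and 1.32 (adjusted p 0.0145) for BHLH101.

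The remaining regulators did not pass the test with iron. The upstream factors had changes of -0.04 for ILR3, -0.22 for bHLH104, -0.02 for bHLH115, -0.01 for bHLH34 and -0.06 for bHLH121. Of the BRUTUS-LIKE ligases, AT1G18910 stood at -0.18, and the 2 probe sets of AT1G74770 stood at 0.54 (adjusted p 0.496, limma) and 0.38 (adjusted p 0.205). With iron, both probe sets of AT1G74770 read higher on each pye-1 array than on either wild-type array, without passing the test. Such separation of 2 against 2 arrays is common: without iron, in either direction, it was found in 36% of all tested probe sets. The genotype change of these 2 probe sets without iron was 0.35 (adjusted p 0.649, limma) and 0.50 (adjusted p 0.0378), so the second passed there.

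None of the 5 tested genes of the iron uptake group passed, and their median was -0.05. BGLU42, a beta-glucosidase that releases coumarins, read 258 and 280 in wild type and 264 and 257 in pye-1, a change of -0.05. AT3G07720, a kelch-repeat protein known as strongly iron-regulated, read 407 and 246 in wild type and 373 and 292 in pye-1 (0.06). AT3G13610 (F6'H1), which makes the precursor of coumarins, read 3113 and 2507 against 3138 and 1931 (-0.18). In these 3 genes the genotypes overlapped with iron, whereas without iron wild type read 1237 and 1124 for BGLU42, 4285 and 4477 for AT3G07720 and 4534 and 4986 for AT3G13610. AT3G58060, a cation efflux protein of the MTP family, lay around the control level with iron, at 20.6 and 13 in wild type and 7.31 and 21.8 in pye-1 (-0.37). AT3G12900 (S8H), an enzyme of coumarin synthesis, read 2.88 and 4.44 in wild type and 5.40 and 12.5 in pye-1, all at or below the control level, so no fold is given for it. Its adjusted p was 0.0562, and 0.0325 without pye-1 replicate 1 (limma). The rise of the 2 regulators was thus measured without a called change among these 5 uptake genes. IRT1, FRO2 and FIT are not among the probe sets with a name here. The same holds for the genes listed as bound by PYE or as transporters of iron ligands. Probe sets without a name were tested, and some passed, but no result can be assigned to these genes. The 5 genes above therefore do not show how uptake genes as a whole responded.

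Outside the iron regulators, 9 named genes met the rule for description among the higher calls. That rule admits only calls whose groups do not overlap. GH3.3, an auxin-inducible enzyme that conjugates auxin to amino acids, read 22.8 and 25.8 in wild type and 69.4 on both pye-1 arrays. The groups were clearly apart, and the change was 1.52 ± 0.22 (n = 2 per group, 2.86-fold, adjusted p 0.00807 in limma). Without iron it read 85.3 and 104 in wild type and 147 on both pye-1 arrays, a change of 0.64 (adjusted p 0.212).

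A glycine-rich protein, AT2G05540, read 47.5 and 69.2 in wild type and 194 and 152 in pye-1. Every pye-1 signal was more than double the wild-type signal of its replicate, and the change was 1.58 ± 0.24 (adjusted p 0.0120, limma). It was also higher without iron, at 2.19 (adjusted p 0.000327), where wild type read 40.8 and 31.3 and pye-1 160 and 167.

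AT5G05250, a gene of unassigned function, read 162 and 99.3 in wild type and 269 and 378 in pye-1. The change was 1.33 ± 0.21 (adjusted p 0.0179, limma) and differed between the replicates, since leaving out 1 array moved it between 0.83 and 1.84. Without iron the wild-type signals were 494 and 536, above those of pye-1 with iron, and the genotype change there was 0.78 (adjusted p 0.113).

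AT3G56360, also of unassigned function, read 908 and 1002 in wild type and 1435 and 1523 in pye-1. Its replicates were close, and the change was small, 0.63 ± 0.08 (adjusted p 0.00537, limma). Without iron, wild type read 2066 and 2146 and pye-1 2834 and 2871, a change of 0.44 (adjusted p 0.0193). AT2G41730 read 193 and 153 in wild type against 359 and 278 in pye-1, which gave 0.88 ± 0.14 (adjusted p 0.0160). The suffix of its probe set marks probes that can also match other sequences, so its rise carries that uncertainty. Without iron its change was 1.46 (adjusted p 0.000126).

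SWEET16, a sugar transporter of the vacuolar membrane, read 303 and 455 in wild type and 549 and 761 in pye-1. Replicate 2 was brighter in both genotypes, and the change within each replicate was similar, 0.80 ± 0.10 in the fit (adjusted p 0.00526, limma). Without iron the order of the genotypes was not the same: wild type read 460 and 636 and pye-1 436 and 585, a change of -0.10.

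AT1G62770, of the pectin methylesterase inhibitor family, read 248 and 159 in wild type and 460 and 281 in pye-1, a change of 0.86 ± 0.15 (adjusted p 0.0301, limma). AT5G37690, a GDSL-type hydrolase, read 653 and 515 against 1115 and 727 (0.63 ± 0.12, adjusted p 0.0469), and AT5G49350 read 127 and 156 against 228 and 255 (0.78 ± 0.14, adjusted p 0.0456). In each of the 3 the pye-1 signals with iron lay above both wild-type signals, as the rule for description required. Without iron the genotypes overlapped in all 3, with changes of -0.05 for AT1G62770, -0.11 for AT5G37690 and -0.12 for AT5G49350, none past the threshold.

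Of the 11 named genes that rose under that rule, 10 lost the call without pye-1 replicate 1 and 10 without pye-1 replicate 2, the exception in both being AT1G47400. Without wild-type replicate 1, 7 lost it, and without wild-type replicate 2, 4 did. Without the block, AT1G47400 and GH3.3 passed and the other 9 did not. The twelfth named higher call, psbT, a plastid gene of photosystem II, fell outside the rule because its groups overlapped. It read 59.3 and 173 in wild type and 109 and 369 in pye-1, with replicate 2 brighter in each genotype, as the ribosomal RNA control was. Its change of 0.99 ± 0.17 (adjusted p 0.0329, limma) had an adjusted p of 0.974 without the block.

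**Figure D2:**
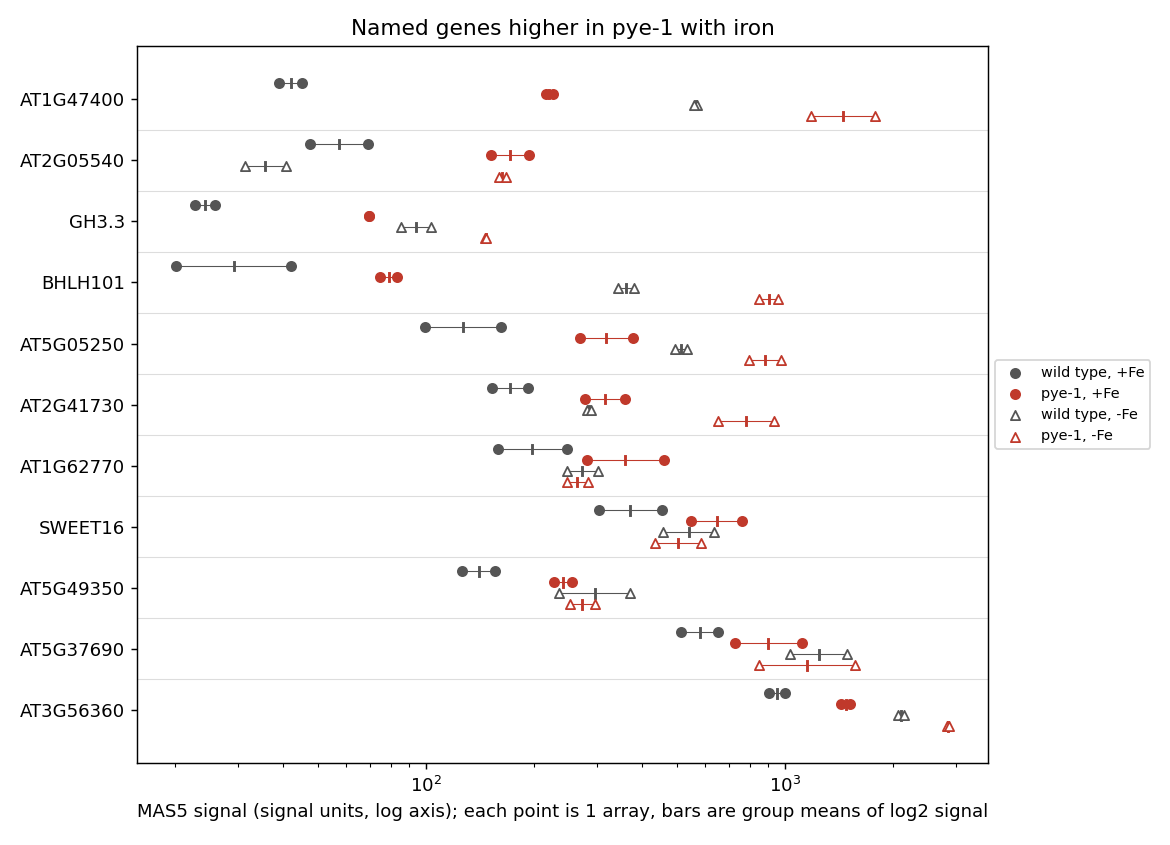
Signal of the named genes that were higher in pye-1 (horizontal, MAS5 signal on a log axis), with the genes listed vertically. Wild type and pye-1 are shown in both media, with 1 point per array. The genes shown were chosen among calls for groups that do not overlap, so with iron both pye-1 points lie above both wild-type points. For AT1G47400 they are 226 and 216 against 45.3 and 39.1.

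Beside PYE and AT3G47650, 8 named genes were lower in pye-1 under the same rule. GIGANTEA (GI), a clock-associated protein that peaks late in the day and takes part in photoperiodic flowering, read 313 and 402 in wild type and 140 and 104 in pye-1. The groups did not overlap, and the change was -1.56 ± 0.17 (n = 2 per group, 2.95-fold lower, adjusted p 0.00172 in limma). It fell by 1.16 in replicate 1 and by 1.96 in replicate 2, and among the 8 fits that left out 1 array the call was lost only without pye-1 replicate 2 (adjusted p 0.0590). Without iron GI read 401 and 413 in wild type and 113 and 134 in pye-1, a change of -1.73 (adjusted p 0.000200), so pye-1 signals were low in both media. Time of day at harvest is not given in the labels. The other tested gene of the clock list, AT5G52660, a MYB-like factor of the REVEILLE family, changed by -0.18 and did not pass.

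AT5G35940, a jacalin-type lectin, read 496 and 863 in wild type and 283 and 313 in pye-1. The groups did not overlap, although on the log2 scale the wild-type replicates lay farther from each other than the lower of them lay from the nearer pye-1 array. The change was -1.14 ± 0.17 (adjusted p 0.0120, limma). It fell without iron as well, with -1.32 (adjusted p 0.00127). SWEET11, a sugar exporter of the plasma membrane that takes part in phloem loading in leaves, read 3306 and 3652 in wild type and 2082 and 1693 in pye-1. This was a change of -0.89 ± 0.16 (adjusted p 0.0354) that ran from -1.22 to -0.56 when 1 array was left out. Its signals without iron were 1274 and 1560 in wild type and 1237 and 1932 in pye-1, with overlapping groups and a change of 0.13.

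A subtilisin-like protease, ATSBT5.2, read 778 and 756 in wild type and 459 and 465 in pye-1, with replicates that nearly coincided. The change was -0.73 ± 0.11 (adjusted p 0.0104, limma), and without iron it was -0.21. AT2G36950, a protein with a heavy-metal-associated domain, read 450 and 506 against 312 and 299 in pye-1. Its change was -0.64 ± 0.11 (adjusted p 0.0330), and without iron -0.05. The membrane transporter AT2G16990, of the major facilitator superfamily, read 257 and 240 against 161 and 120 in pye-1, a change of -0.83 ± 0.15 (adjusted p 0.0368) with -0.32 without iron. These 3 genes fell in pye-1 with iron and did not pass on the arrays without it.

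Of the nuclear proteins, the PLATZ-type factor AT1G32700 read 1537 and 1298 in wild type and 884 and 861 in pye-1, a change of -0.69 ± 0.13 (adjusted p 0.0481, limma). The linker histone HIS1-3, known as drought-inducible, read 1554 and 1236 in wild type and 1109 and 798 in pye-1, a change of -0.56 ± 0.10 (adjusted p 0.0456). Both were lower with iron, and without iron AT1G32700 changed by 0.33 while HIS1-3 rose by 0.59 (adjusted p 0.0113). Among the 10 lower genes, counting PYE and AT3G47650, all 10 lost the call without pye-1 replicate 2 and 8 without pye-1 replicate 1. Wild-type replicate 1 decided 7 of them and wild-type replicate 2 decided 6. Without the block GI alone of the 10 passed.

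**Figure D3:**
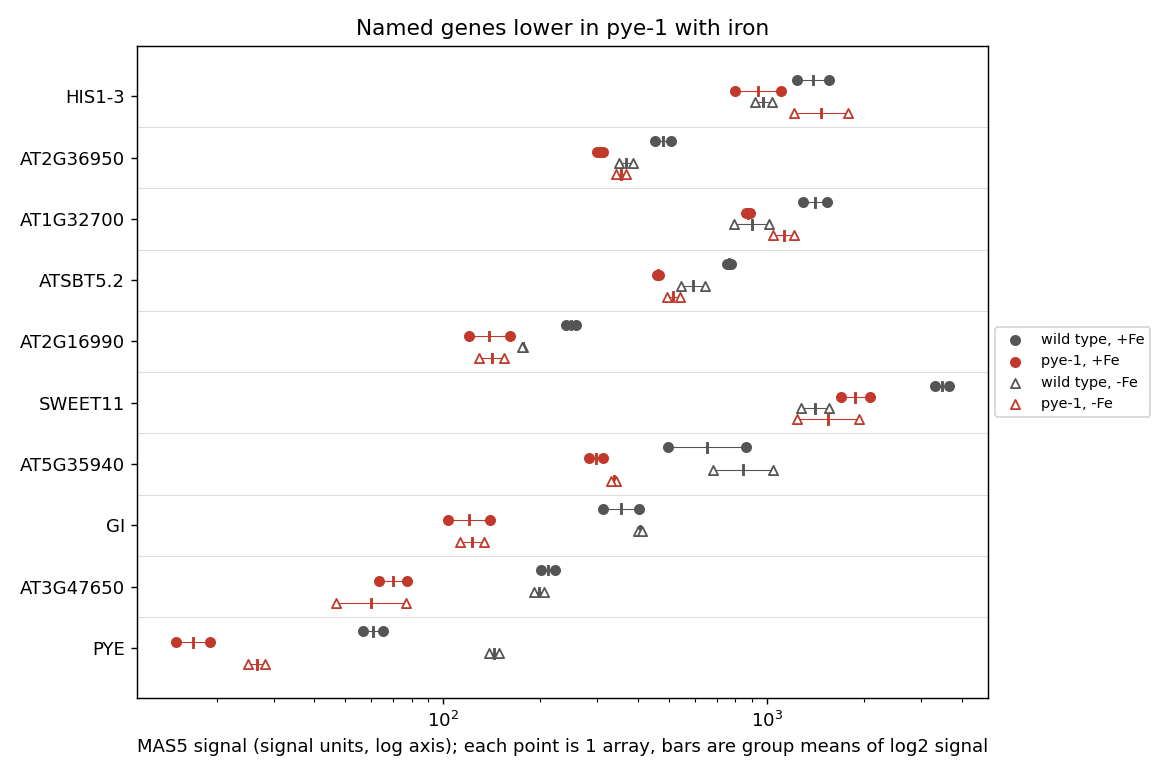
Signal of the named genes that were lower in pye-1 (horizontal, MAS5 signal on a log axis), with the genes listed vertically. Wild type and pye-1 are shown in both media, with 1 point per array. The genes shown were chosen among calls for groups that do not overlap, so with iron both pye-1 points lie below both wild-type points. For GI and PYE both pye-1 points lie below without iron as well.

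Several of the largest changes were in probe sets that carry no gene name here, so nothing is said of what they encode. The largest rise was that of probe-259871_at, which read 105 and 76.0 in wild type and 1207 and 1088 in pye-1, 3.68 ± 0.12 on the log2 scale (12.9-fold, adjusted p 1.02e-08 in limma). Wild type stayed low without iron as well, at 69.8 and 65.3, while pye-1 read higher still, at 3676 and 2774. This probe set was bright in pye-1 in both media and dim in wild type in both.

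The next were probe-251677_at, from 133 and 82.3 in wild type to 549 and 579 in pye-1 (2.43 ± 0.15, adjusted p 7.97e-06, limma), and probe-254550_at, from 122 and 35.0 to 731 and 245 (2.70 ± 0.35, adjusted p 0.00526). Both were far brighter without iron, where wild type read 1743 and 1760 for the former and 4054 and 4238 for the latter. The pye-1 signals with iron lay below those wild-type signals. The call for probe-254550_at was lost without either pye-1 array (values 2.06 to 3.33 over the fits that left out 1 array, adjusted p up to 0.131) and without the block (0.242). The probe set probe-253502_at also passed (adjusted p 1.48e-05), but it read 0.994 and 1.21 in wild type and 11.4 and 11.3 in pye-1. All 4 readings lie at or below the control level, so neither a fold nor a direction is given for it. Likewise probe-267024_s_at was dim in wild type, at 7.03 and 4.01, and read 28.5 and 22 in pye-1, a fold of at least 1.28 (adjusted p 0.0214, limma). The bound sets the pye-1 mean against the control levels of the wild-type arrays, and this call was lost once the dim signals were floored there (0.36, adjusted p 0.747).

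A different order of levels was seen in probe-251109_at, which read 1039 and 1055 in wild type with iron and 2104 and 2256 in pye-1 (1.06 ± 0.11, adjusted p 0.00126, limma). Without iron wild type read 237 and 311, whereas pye-1 stayed at 2300 and 2187. Its wild-type signals were thus lower without iron than with it, and its pye-1 signals were alike in the 2 media. Its call was lost without pye-1 replicate 2 (adjusted p 0.0682). For probe-257823_at the readings were 1201 and 915 in wild type and 2557 and 2584 in pye-1 with iron (1.29 ± 0.11, adjusted p 0.000164), and 780 and 601 against 2795 and 2691 without it. It passed in all 8 fits that left out 1 array and without the block, as did probe-259871_at and probe-251677_at.

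The largest falls without a name were smaller. They were -1.61 ± 0.21 for probe-258321_at (401 and 563 in wild type, 112 and 218 in pye-1, adjusted p 0.00526 in limma) and -1.33 for probe-258809_at (967 and 669 against 372 and 277, adjusted p 0.00752). Next came -1.27 for probe-252269_at (143 and 128 against 69.7 and 45.2, adjusted p 0.0120) and -0.95 for probe-246522_at (199 and 231 against 97.5 and 126, adjusted p 0.0303). All 4 lost the call without the block (adjusted p 0.100 to 0.221). Leaving out 1 array ended it for probe-258321_at (without pye-1 replicate 1), for probe-258809_at (without either pye-1 array or wild-type replicate 1), for probe-252269_at (without either wild-type array or pye-1 replicate 2) and for probe-246522_at (without any of the 4). Without iron the change was -1.91 (adjusted p 0.000342) for probe-258321_at and -1.28 (adjusted p 0.00122) for probe-246522_at, and it did not pass for the other 2, at -0.20 and -0.67.

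The genotype difference without iron was measured on 4 other arrays, in the same fit and with the same block, so it shares the error estimate but no array. There 273 probe sets passed (1.71%), 159 higher in pye-1 (0.999%) and 114 lower (0.716%). Of the 55 called with iron, 26 also passed without iron in the same direction, 16 higher and 10 lower. They make up 47.3% of the calls with iron and 9.52% of the calls without. The shared calls held AT1G47400, BHLH101, AT2G05540, AT2G41730 and AT3G56360 among the higher genes, and PYE, AT3G47650, GI and AT5G35940 among the lower. HIS1-3 was the 1 gene that passed in opposite directions. Over all 55 the sign was the same in the 2 media for 44, against 49.1% of all tested probe sets. The shared count was 10 without pye-1 replicate 1 with iron, 5 without its replicate 2, and 6 without the block.

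The change of the 55 calls was also set beside their change without iron. Over the 27 higher calls the median change was 1.29 with iron and 0.82 without. Over the 28 lower calls it was -0.83 and -0.30. The calls were chosen by their change with iron, so these medians do not show that the medium altered the difference. A test of the difference between the media, the interaction of genotype and iron, passed for 56 of 15922 probe sets (0.352%) and for 10 of the 55, 6 higher and 4 lower. That test uses the same arrays with iron that chose the 55, so the 10 are given as a description. The named genes among the 10 were SWEET16, AT1G32700 and HIS1-3. For GI the change was close to the same in both media, -1.56 and -1.73, and for PYE the interaction of -0.59 did not pass (adjusted p 0.631, limma).

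**Figure D4:**
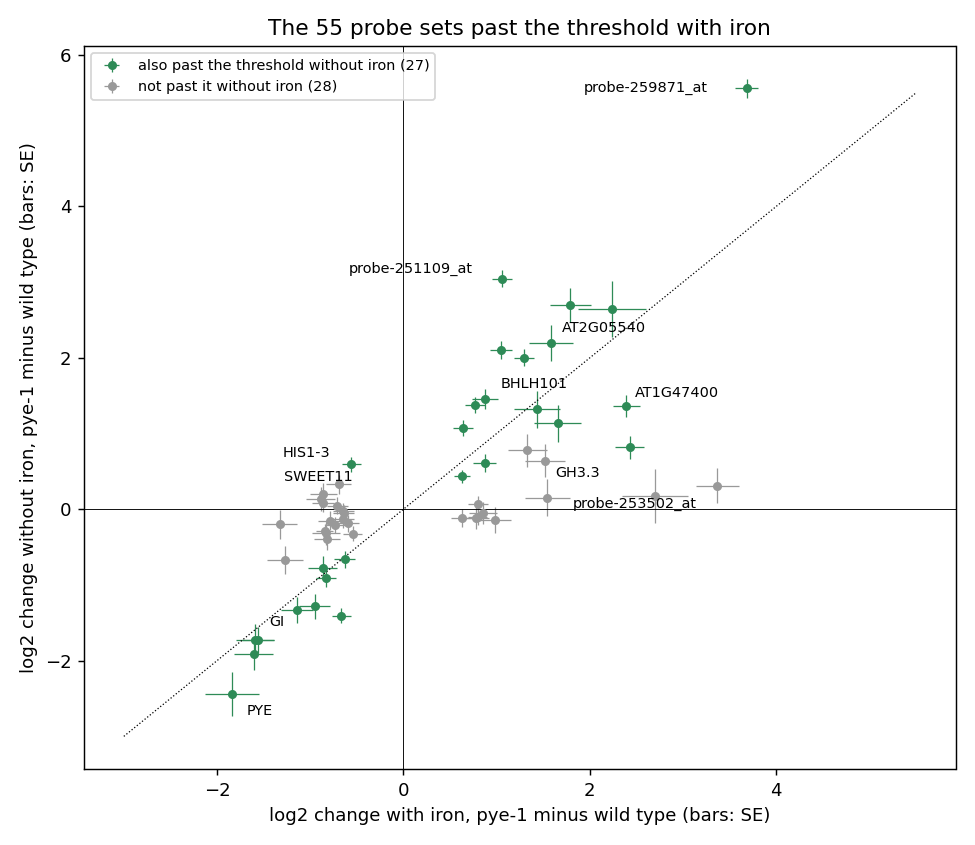
Change in pye-1 against wild type without iron (log2, vertical) against the change with iron (horizontal) for the 55 probe sets called with iron, marked by whether they also passed without iron. Most points lie in the 2 quadrants of equal sign, 44 of 55, and HIS1-3 passed with opposite signs, -0.56 with iron and 0.59 without.

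Other gene groups of roots and of iron-related stress showed few or no called changes with iron, read against the 0.345% of all tested probe sets. Of 5 auxin-response genes 1 passed, GH3.3, with a list median of 0.22, and LBD29, a lateral-root factor, stood at 0.61 and WES1 (GH3.5) at 0.22 without passing. None of 10 low-oxygen genes passed (median 0.03): AT5G66985 stood at 0.35, AT3G03270 at 0.34 and AT1G19530 at -0.68, which passed only without wild-type replicate 2 (-1.48, adjusted p 0.000461 in limma). Without iron 6 of those 10 were higher, with a median of 1.15, where 0.999% of all tested probe sets were. The 4 glucosinolate genes had a median of 0.22 and none passed, with GSTU20 at 0.44 and BCAT4 at 0.28, while without iron 3 were lower with a median of -1.21, against 0.716% of all tested probe sets. For these 2 lists the calls were found on the arrays without iron and not on those with it. The difference between the media passed its own test for 4 of the 10 low-oxygen genes, against 0.352% of all tested probe sets. They were AT1G19530, AT1G33055, AT4G27450 and AT4G10270 (adjusted p 0.000354 to 0.0399, limma). For AT4G10270, signals below the control level occurred in both wild-type groups and in pye-1 with iron. The same test passed for 1 of the 4 glucosinolate genes, BCAT4 (adjusted p 0.00143), and not for GSTU20 (0.0713) or AT2G31790 (0.0843), the others called without iron.

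The 11 class III peroxidases, enzymes of cell-wall and lignin chemistry, had a median of -0.12, and none passed. AT1G34510 came nearest, at -1.14 (adjusted p 0.126, limma), with 285 and 202 in wild type and 155 and 76.3 in pye-1, and it passed when the 4 arrays with iron were fitted alone (adjusted p 0.0455). The difference between the media passed for 1 of the 11, AT3G49960, against 0.352% of all tested probe sets. This gene stood at -0.26 with iron and was higher without iron, at 2.19 (adjusted p 0.0104 for the difference, limma). Its wild-type signals without iron were 10.9 and 25.9, the first below the control level of its array, 12.8. None passed among the 5 coumarin and phenylpropanoid genes, which include AT3G12900 and AT3G13610 (median -0.11, HCT -0.11 and CCR2 -0.18), the 5 heme and tetrapyrrole genes (median 0.04, HEME1 0.25 and HEMA2 -0.25) or the 4 oxidative-stress genes (median 0.12, AT2G21640 0.51 and GSTU25 0.19). The 5 green-tissue markers had a median of -0.10 with LHCB4.1 at -0.45, and the root-hair expansins stood at -0.42 for EXPA18 and -0.17 for EXPA7, all without passing. With 2 arrays per group, a miss does not show that a group was unaltered.

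**Figure D5:**
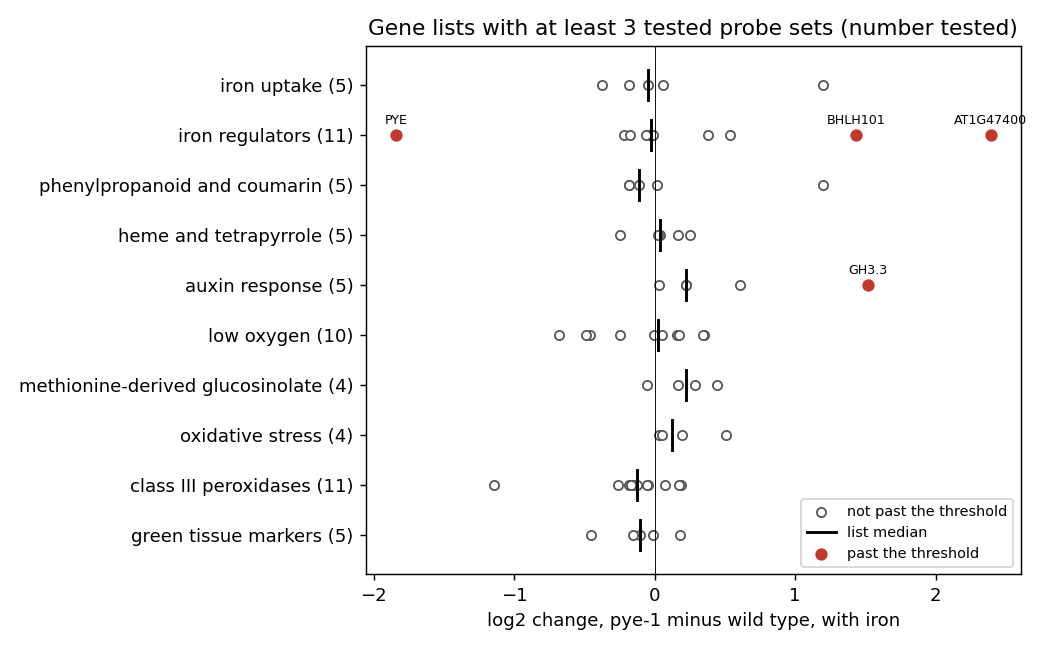
Change in pye-1 against wild type with iron (log2, horizontal) for each tested probe set of the gene groups with at least 3 tested probe sets (vertical), with called probe sets marked and the group median drawn. Called points appear only among the iron regulators (AT1G47400, BHLH101 and PYE) and the auxin-response genes (GH3.3).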

How the data were processed

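Biotin-labelled RNA was hybridised to 1-colour Affymetrix arrays, 8 in all and 2 per group. The deposited signal intensities are MAS5 values on a linear scale, per the submitters' processing notes, and no source used here names the MAS5 version. The number of arrays limits the precision.

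Here the log2 of each deposited signal was taken with no pseudocount and no further normalization. The 64 control probe sets and the dimmest 30% of the others (mean signal below 23.3) were left out. All 8 arrays were fitted with limma 3.58.1 in R 4.3.3, with 4 group means, the replicate number as a block and an intensity trend in eBayes. The prior added 9.41 degrees of freedom to the 3 residual ones. P-values were adjusted by Benjamini-Hochberg over all tested probe sets, with a threshold of 0.05, and the fit was tested on simulated data. An exact permutation test of 2 against 2 cannot go below 0.333 and was not run.

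The replicate number comes from the sample titles. Arrays that share a number deviated together from their groups, with correlations of 0.178 to 0.302 over the 6 pairs of groups. Probe sets were named from the platform annotation, with current symbols taken by locus from RefSeq genes of TAIR10.1: 13513 of 22746 name 1 gene, 503 several and 8730 none. Of those tested, 8793 (55.2%) name 1 gene. Probe sets with no name are written as probe and their array ID.

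Named were PYE, up to 15 single-gene calls in each direction whose groups did not overlap, all tested iron uptake and regulator genes, the members with the smallest p of other lists, and up to 4 unnamed calls in each direction. The other unnamed probe sets, psbT and further list members named for the difference between the media were singled out after their values were seen. The gene lists hold 419 loci in 32 lists, of which 78 were tested; 10 lists had at least 3 tested probe sets. The members and lists were chosen with earlier results of these data known. Alternatives tried were the block, the arrays in the fit, the trend, the filter, a pseudocount of 16, a floor at the control level, 2 other scalings and leaving out each array.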

Additional observations from a re-analysis of the deposited data

Results flagged for a closer look

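The interaction of genotype and iron in limma, a test of the difference between the media, passed for 16 probe sets described above. Over all tested probe sets, 0.352% passed it. Of the 16, 10 were called on the arrays with iron that also enter this test, and some list members were named because it passed. The values are therefore given as a description. Interaction values are the change without iron minus the change with iron, on the log2 scale ± SE, with n = 2 arrays per group. Among sugar transport and nuclear genes, SWEET16 had an interaction of -0.90 ± 0.15 (adjusted p 0.0205), from 0.80 with iron to -0.10 without. AT1G32700 had 1.02 ± 0.19 (adjusted p 0.0399), from -0.69 to 0.33. HIS1-3 had 1.15 ± 0.15 (adjusted p 0.00417), from -0.56 to 0.59, and passed in both media with opposite signs.

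From the gene groups, AT1G19530 of the low-oxygen list had 3.67 ± 0.42 (adjusted p 0.00151), with -0.68 with iron (adjusted p 0.451) and 2.99 without. BCAT4, the aminotransferase that opens methionine chain elongation for glucosinolates, had -2.38 ± 0.27 (adjusted p 0.00143), with 0.28 with iron and -2.10 without. Neither passed with iron over all arrays, though AT1G19530 passed there at -1.48 once the second wild-type array was left out (adjusted p 0.000461, limma). Of the same low-oxygen list, AT1G33055 had 2.00 ± 0.17, AT4G27450 had 1.497 ± 0.165 and AT4G10270 had 3.59 ± 0.65, the last with an array at the control level. The peroxidase AT3G49960 had 2.46 ± 0.36, with its signal on wild-type replicate 1 without iron below the control level.

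The other 7 have no name here. The difference was larger without iron for probe-259871_at (1.88 ± 0.17), probe-251109_at (1.99 ± 0.16) and probe-258646_at (1.06 ± 0.17), all higher in pye-1, and for probe-267002_s_at (-0.74 ± 0.14), lower in pye-1. It was smaller for probe-251677_at (-1.61 ± 0.22) and for probe-251226_at (0.94 ± 0.16), which read 1937 and 1908 in wild type and 935 and 1195 in pye-1 with iron. For probe-253502_at the value was -3.06 ± 0.33, but all 4 of its signals with iron lay at or below the control level.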

How the results depend on the processing

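The 55 calls with iron came to 10 with no replicate block, 3 with no intensity trend, and 7 to 79 when 1 array was left out. With no block, the 273 calls without iron came to 74, the 56 interactions to 14 and the 26 shared calls to 6. With no trend these were 22, 0 (limma, 1517 at an unadjusted p under 0.05) and 1. Under leaving out 1 array they ran from 95 to 322, from 13 to 133 and from 5 to 23. The shared count under these settings was added after the data were seen. Only 5 of the 55 passed in all 8 fits with 1 array left out. PYE kept its direction, with -1.84 and an adjusted p of 0.0630 with no block, 0.131 with the 4 arrays with iron alone, 0.0819 with no trend, 0.0736 with no filter, a value of -1.22 with log2(signal + 16), and values of -2.10 to -1.59 with 1 array left out. With signals raised to the control level, probe-253502_at and AT3G12900 both came to -0.34, which is the difference between the control levels themselves, since all their signals with iron lay below them. Of these, probe-253502_at is among the 5 probe sets above, so that number includes readings at background. With 1 array left out, changes ran across 0 for AT3G58060 (-1.24 to 0.50), AT3G13610 (-0.50 to 0.13), AT3G07720 (-0.27 to 0.39), HEMA2 (-0.61 to 0.12), WES1 (-0.0080 to 0.45), LBD16 (-0.080 to 0.52), AT1G19530 (-1.48 to 0.12), UGT74B1 (-0.032 to 0.36), NDB2 (-0.16 to 0.23) and STZ (-0.23 to 0.34), none of which passed over all arrays. The causes were not tested. Another scaling moved the median of all probe sets from 0.02 to -0.03 at most.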
